A study of Mus musculus with 8 samples.

Results

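The 6 genes described here encode the von Hippel-Lindau protein (Vhl) and the subunits of the hypoxia-inducible factor HIF: the alpha subunits Hif1a, Epas1 and Hif3a and the beta subunits Arnt and Arnt2. Each was read on the probe set (a group of array probes summarized as 1 value) that the platform annotation assigns to that gene alone. Each had exactly 1 such probe set, so 6 of the 19936 genes tested are members. Whole-kidney RNA of 8 female mice of a mixed C57BL/6 - SV127 background was measured on Affymetrix arrays, 1 mouse per array. The 4 arrays labelled mutant came from mice with the genotype Pax8-rtTA;LC-1;Vhl-floxed, and the 4 labelled control from littermates whose own alleles the labels do not spell out. Pax8-rtTA drives a doxycycline-dependent activator in kidney tubule epithelium and LC-1 carries the Cre recombinase it switches on, so the other cells of a whole kidney are not aimed at. Mice of both groups drank 0.2 mg/ml doxycycline in 5% sucrose water for 2 weeks from an age of 3 weeks, were returned to plain water for 1 week and were 6 weeks old at harvest.

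HIF is a dimer of an oxygen-labile alpha subunit and a stable beta subunit. In oxygenated cells prolyl hydroxylases modify the alpha subunits, the Vhl protein recognizes the hydroxylated form within a ubiquitin ligase, and the proteasome degrades it. Most of this control acts on protein, which the arrays did not measure. In the kidney, Hif1a protein is known mainly from tubule cells and Epas1 (HIF-2 alpha) from endothelial and interstitial cells, among them the cells that make erythropoietin. Hif3a gives rise to several splice forms, some of which restrain the other alpha subunits, and its transcript is known to respond to hypoxia.

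Values are log2 units, so a difference of 1 is 2-fold. Differences are given as labelled mutant minus labelled control. Probe sets differ in their response, so levels were not compared between genes. Tests were two-sided (limma), p-values were adjusted over all 19936 genes (Benjamini-Hochberg), and a gene with an adjusted p under 0.05 is said to be called, to rise or to fall. Array medians lay between 7.55 and 7.58 log2 units. Proximal tubule markers averaged 12.56 to 12.99 on the 8 arrays and thick ascending limb markers 11.30 to 11.82, so markers of these kidney segments were read on every array. The labels do not say whether RNA was prepared or hybridized in batches.

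The members split by direction. Hif1a and Vhl were higher in the arrays labelled mutant, Epas1 and Hif3a were lower, and Arnt and Arnt2 did not pass the test. Thus 4 of 6 members were called, 2 in each direction, where 7.23% of all genes were called (2.59% higher and 4.64% lower). In the same 4 members the groups did not overlap, which held for 14.8% of all genes (6.57% higher and 8.2% lower). At an adjusted p under 0.01, which 3.02% of genes passed, 3 members were called: Hif1a, Epas1 and Hif3a. Calls at 0.01 were less stable. Those of Hif1a and Epas1 were lost when any single array other than control array 4 was left out. That of Hif3a was lost without control array 2 or without control array 3.

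**Figure D1:**
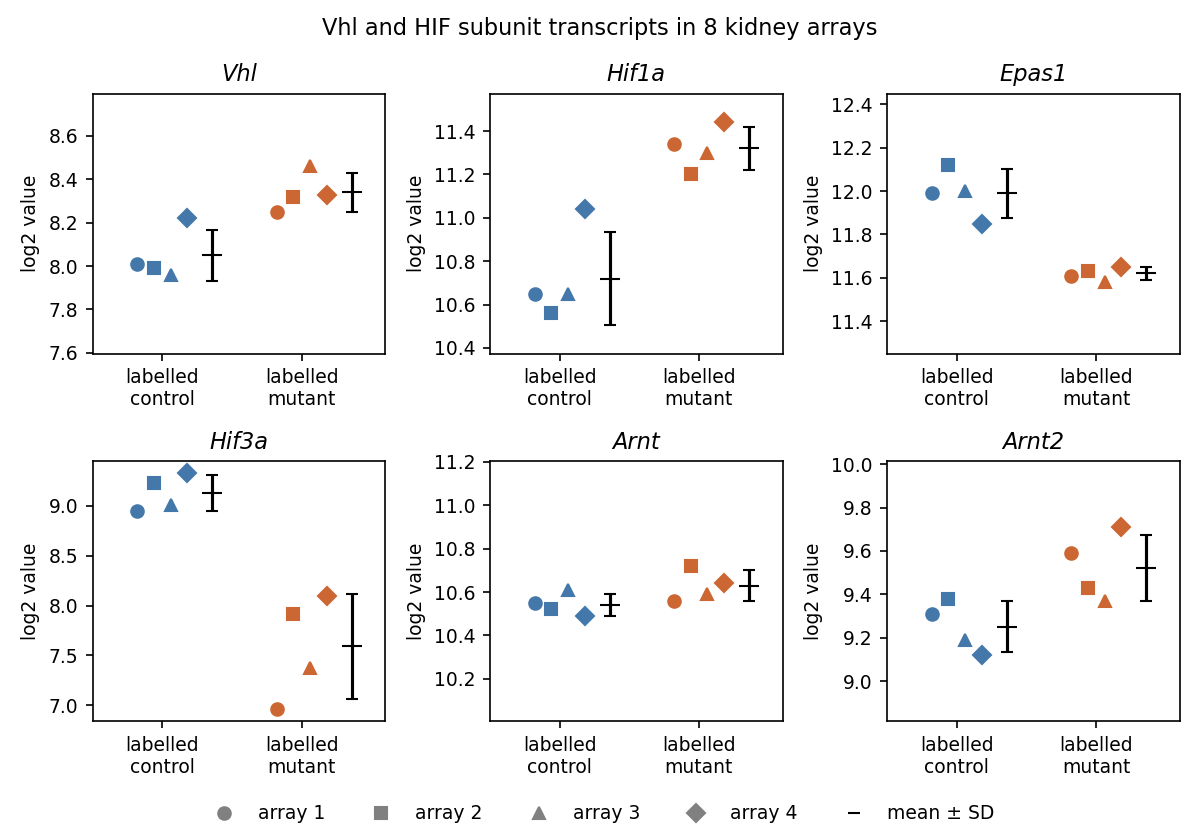
Log2 value of each of the 6 members on the 4 arrays labelled control (blue) and the 4 labelled mutant (orange), with a symbol for each array number and bars for the group mean and SD; each panel has its own log2 axis, and the axes do not start at 0. Hif1a and Vhl lie higher and Epas1 and Hif3a lower in the arrays labelled mutant without overlap, while the groups overlap for Arnt and Arnt2.

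Vhl, the gene that the floxed alleles target, was read first. The arrays labelled mutant gave 8.25, 8.32, 8.46 and 8.33 log2 units and those labelled control 8.01, 7.99, 7.96 and 8.22. No array labelled mutant was lower than any labelled control, and the gap between the groups was 0.02. The difference was 0.29 (95% interval 0.13 to 0.45, limma adjusted p = 0.0387). An exact permutation test, two-sided, gave p = 0.0286, which is the lowest value possible with 4 against 4 arrays. Between arrays of the same number the difference was 0.23, 0.33, 0.50 and 0.11, positive in 4 of 4. Since the groups did not overlap, this permutation p and the 4 positive signs were fixed. They are no further evidence. With the replicate number as a block the limma adjusted p was 0.0558, so the call was lost. It was lost too when mutant array 2 (0.0858), 3 (0.0867) or 4 (0.0785) was left out, and when control array 1 (0.0994), 2 (0.109) or 3 (0.114) was. The targeted transcript was thus higher, not lower, in the arrays labelled mutant, by a difference whose call was often lost. Most target genes of HIF-1, or of both HIF-1 and HIF-2, described further on, fell, where loss of Vhl is known to raise them. Of 6 measured target genes that lean on HIF-2, 1 fell, where 4.64% of all genes did. Whether the labels of the groups were exchanged was not tested; an exchange would turn every direction given here. The groups are named by their labels throughout. The position of the probes in the transcript is not given in the sources used here. Probes outside a deleted part would not check the deletion.

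Hif1a, the alpha subunit best known for driving glycolytic genes, had the largest rise among the members. The arrays labelled mutant gave 11.34, 11.20, 11.30 and 11.44 log2 units, those labelled control 10.65, 10.56, 10.65 and 11.04. Control array 4 was the highest control and still lay 0.17 below the lowest array labelled mutant. The group means were 11.32 ± 0.0976 and 10.72 ± 0.213 (SD, n = 4 each). The difference of 0.59 is 1.51-fold (95% interval 1.29-fold to 1.77-fold; limma adjusted p = 0.0066). Same-numbered arrays differed by 0.68, 0.64, 0.65 and 0.40. Of the 19936 genes, 107 (0.537%) had a larger positive difference.

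Epas1, the subunit of HIF-2, went the other way. It read 11.61, 11.63, 11.58 and 11.65 log2 units in the arrays labelled mutant and 11.99, 12.12, 12.00 and 11.85 in those labelled control. The arrays labelled mutant spanned only 0.07, the controls 0.28, and control array 4 was again the control nearest to the other group, 0.19 away. The difference was -0.37, a 1.29-fold lower value (95% interval 1.17-fold to 1.42-fold; limma adjusted p = 0.0066). Same-numbered arrays differed by -0.38, -0.49, -0.42 and -0.19. A larger fall was seen in 722 genes (3.62%).

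Endothelial markers moved with Epas1. All 14 of 14 were lower in the arrays labelled mutant and passed the test, against 4.64% of all genes. Their median difference was -0.66, where the median of all genes was 0.03. Their mean level ran from 9.87 to 9.97 log2 units in the arrays labelled mutant and from 10.50 to 10.64 in those labelled control. The lowest value of any of these markers on any array was 8.44. Kdr, the main VEGF receptor gene, differed by -0.90, and Cdh5, which encodes VE-cadherin, by -0.84. Of 11 perivascular and interstitial markers 5 fell and 0 rose (3 fell without mutant arrays 1 and 2), with a median of -0.36. Their mean level was 9.06 to 9.28 log2 units against 9.46 to 9.65, and their lowest value was 6.70. The part of these cells in the lower Epas1 value was not tested. In whole-kidney RNA, fewer cells of a type and less RNA per cell cannot be told apart.

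Hif3a showed the largest difference of the members. It read 6.96, 7.92, 7.37 and 8.10 log2 units in the arrays labelled mutant and 8.95, 9.23, 9.01 and 9.33 in those labelled control. The groups lay 0.85 apart, and the arrays labelled mutant spread more widely (1.15) than the controls (0.38). The means were 7.59 ± 0.523 and 9.13 ± 0.18 (SD, n = 4 each). The difference of -1.54 is 2.91-fold lower (95% interval 2.07-fold to 4.09-fold; limma adjusted p = 0.00304), and 25 genes (0.125%) fell further. Same-numbered arrays differed by -1.99, -1.31, -1.64 and -1.23. In mutant arrays 1 and 3 the value lay below the median of its array, though not below the lower quartile on any array. The sources used here do not give which splice forms the probe set reads.

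Pair 4 gave the smallest of the 4 same-numbered differences in Vhl, Hif1a, Epas1 and Hif3a alike. Control array 4 had the highest Vhl, Hif1a and Hif3a values and the lowest Epas1 value of the controls. So in 3 of these 4 genes it lay nearest to the arrays labelled mutant, and in Hif3a farthest. Without it the differences were 0.35 for Vhl, 0.70 for Hif1a, -0.42 for Epas1 and -1.48 for Hif3a, and all 4 calls held in the limma fit (adjusted p = 0.0128, 0.000742, 0.00387 and 0.00838).

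The beta subunits moved little. Arnt, the partner shared by all alpha subunits, read 10.56, 10.72, 10.59 and 10.64 log2 units in the arrays labelled mutant and 10.55, 10.52, 10.61 and 10.49 in those labelled control. The groups overlapped, and the difference was 0.09 (95% interval -0.04 to 0.21; limma adjusted p = 0.391; exact permutation p = 0.114). The upper bound of 0.21 lay below the lower bound of Hif1a, 0.37. Arnt2, a paralogue best known from neurons, read 9.59, 9.43, 9.37 and 9.71 against 9.31, 9.38, 9.19 and 9.12. Mutant array 3 and control array 2 overlapped by 0.02. The difference of 0.27 (95% interval 0.08 to 0.47) was positive in 4 of 4 same-numbered arrays but did not pass over all genes (limma adjusted p = 0.0968; exact permutation p = 0.0571). In size it was close to that of Vhl, which passed.

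**Figure D2:**
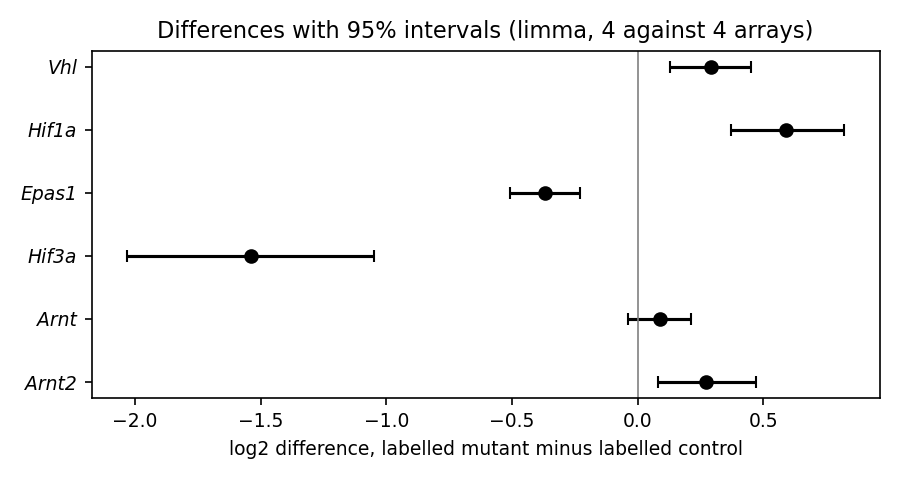
Log2 difference of each member, arrays labelled mutant minus arrays labelled control, as points with 95% intervals from the limma fit (4 against 4 arrays). The interval spans 0 for Arnt alone, and Hif3a at -1.54 lies farthest from 0.

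Ratios between members were formed on each array as the log2 value of 1 gene minus that of another. Only their shift between groups can be read, since the level of a ratio depends on the probes. All 15 pairs of the 6 members were computed; they share the same 6 readings and are not independent. In 10 of 15 the groups did not overlap. Each of the 10 had an exact two-sided permutation p = 0.0286, the smallest possible, and 0.0429 after Benjamini-Hochberg adjustment over the 15 ratios. For Vhl or Hif1a over Epas1 or Hif3a this outcome was fixed by the members themselves. The first gene rose and the second fell, each without overlap, so the ratio could not overlap. Those ratios give the size of a shift and are no further evidence.

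The ratio of Hif1a to Epas1 shifted toward Hif1a. Relative to the control mean it stood at 0.99, 0.84, 0.98 and 1.05 log2 units in the arrays labelled mutant and at -0.07, -0.30, -0.08 and 0.45 in those labelled control. All arrays labelled mutant were at least 0.38 above control array 4, the highest control. The shift of 0.97 ± 0.166 (standard error, n = 4 each) is 1.95-fold. It was 0.60 between the arrays numbered 4 and 1.06, 1.14 and 1.07 in the other pairs.

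Against Arnt, their common partner, the alpha subunits took different courses. Epas1 over Arnt shifted by -0.46 ± 0.0613 (standard error, n = 4 each), with the arrays labelled mutant at -0.40, -0.54, -0.46 and -0.43 and the controls at -0.01, 0.15, -0.06 and -0.09 relative to the control mean. Control array 4 did not stand apart in this ratio. Hif3a over Arnt shifted by -1.63 ± 0.26, a 3.09-fold lower ratio, and the groups lay 0.94 apart. Hif1a over Arnt shifted by 0.51 ± 0.143 but the groups overlapped: control array 4 (0.37) lay above mutant array 2 (0.30). Its exact permutation p was 0.0571, and 0.0779 adjusted over the 15 ratios.

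Among the alpha subunits, Hif1a over Hif3a shifted most of all ratios, by 2.14 ± 0.276 (4.40-fold), and Epas1 over Hif3a by 1.17 ± 0.277 (2.25-fold; standard errors, n = 4 each). Both were free of overlap, which for Hif1a over Hif3a was fixed by the members. The shift of Epas1 over Hif3a means that Hif3a fell further than Epas1. Vhl over Epas1 rose by 0.66 ± 0.123 and Vhl over Hif3a by 1.84 ± 0.266, whereas Vhl over Hif1a fell by 0.30 with a gap of 0.02 between the groups. Vhl over Arnt2 shifted by only 0.02 ± 0.153 (exact permutation p = 0.886), with -0.07 to 0.12 when single arrays were left out. Arnt over Arnt2 differed by -0.19 ± 0.109, and the groups overlapped (exact permutation p = 0.171).

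**Figure D3:**
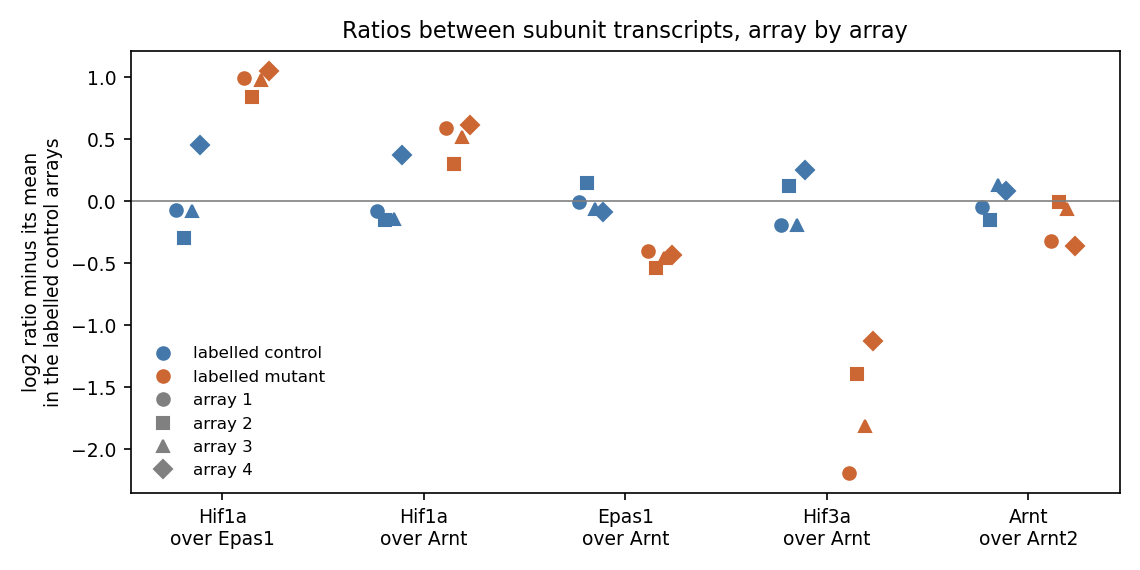
Log2 ratios of 5 pairs of subunit transcripts on each array, minus the mean of that ratio over the 4 arrays labelled control (blue, labelled control; orange, labelled mutant; symbols give the array number). Hif1a over Epas1 lies higher and Epas1 over Arnt and Hif3a over Arnt lie lower in the arrays labelled mutant without overlap; the other 2 ratios overlap.

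Promoter sequence was at hand for 5 members, from RefSeq on GRCm38.p6; Epas1 was not matched. HIF dimers bind a short core, searched here as ACGTG or GCGTG on either strand in the 250 bases before the annotated start. Of 32851 such windows in the table, 38.6% hold at least 1 of the cores (ACGTG 16.6%, GCGTG 28.2%). The windows of Hif1a and Hif3a are shown because these genes differed most among the members, in opposite directions, and each holds more than 1 match. Capitals mark the matches, 5′ to 3′ on the strand of the gene.
Hif1a (chr12:73907617-73907866, plus strand): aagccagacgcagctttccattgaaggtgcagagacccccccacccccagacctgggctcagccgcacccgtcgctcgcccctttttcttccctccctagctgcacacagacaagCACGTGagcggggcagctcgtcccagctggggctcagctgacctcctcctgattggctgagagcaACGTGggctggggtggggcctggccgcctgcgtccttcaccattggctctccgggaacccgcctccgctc
Hif3a (chr7:17062428-17062677, minus strand): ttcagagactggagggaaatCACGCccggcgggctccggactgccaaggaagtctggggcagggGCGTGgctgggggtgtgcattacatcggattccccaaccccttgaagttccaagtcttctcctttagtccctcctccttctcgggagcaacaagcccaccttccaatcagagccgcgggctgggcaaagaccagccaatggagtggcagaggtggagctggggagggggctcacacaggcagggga
In Hif1a the ACGTG core occurs on the gene's strand from 134 and from 70 bases before the start. The first of these overlaps a match on the other strand from 135 bases before it, which together read CACGTG, the E-box that other factors of the same class also bind. In Hif3a the GCGTG core occurs once on each strand, from 186 and from 230 bases before the start. The Arnt window holds 1 GCGTG, 29 bases before the start, and those of Vhl and Arnt2 hold neither core. A match is a description of the letters and not a binding site.

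Genes next to the members on the chromosome, by the order of protein-coding genes in the GRCm38.p6 table, were read from the same fit. Of 12 neighbours 10 were measured and 1 was called, Prkch, a protein kinase C gene beside Hif1a, at -0.54 (limma adjusted p = 0.0184), opposite in direction to Hif1a. Over all genes 7.23% were called (4.64% lower), so 1 call among 10 genes lies near that share. Prkch was named after its value was seen. Brk1 and Irak2, on either side of Vhl, differed by -0.01 and 0.10 and did not pass. The other neighbours ran from -0.19 to 0.13.

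The machinery around the members was read from lists. Their counts, here and below, stand beside the 7.23% of all genes that were called (2.59% higher and 4.64% lower). In lists this short, few or no calls lie near that share. In the VHL ligase list 0 of 10 measured genes were called in the limma fit (1 at an unadjusted p under 0.05), and 0 under any of the 17 alternatives. They include Elob and Eloc (elongins), Cul2 (the cullin scaffold) and Rbx1 (the RING subunit), with differences of 0.03, -0.03, -0.06 and -0.05. Usp20, a deubiquitinase, had the largest difference of the list at 0.12 (limma adjusted p = 0.263). Among 17 measured HIF cofactor and stability genes limma called 0 (1 at an unadjusted p under 0.05, and 1 call without mutant arrays 3 and 4). Cited4, of a family that competes for the coactivator p300, had the largest difference at 0.22 (limma adjusted p = 0.173). The median of both lists was -0.01.

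The enzymes that hydroxylate the alpha subunits did not move together. Egln3 and Egln1, prolyl hydroxylases whose transcripts HIF can induce, fell by 2.96 and by 0.75 on the log2 scale (limma adjusted p = 2.15e-06 and 0.000617). Egln1 read 9.76, 9.78, 9.93 and 9.95 log2 units in the arrays labelled mutant and 10.42, 10.72, 10.70 and 10.57 in those labelled control. Egln2, a prolyl hydroxylase, differed by 0.15 and did not pass (limma adjusted p = 0.0861), though its groups did not overlap. Hif1an, the asparaginyl hydroxylase, differed by -0.08. So 2 of 5 measured genes fell and 0 rose.

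Arnt also pairs with some other proteins of the bHLH-PAS class. The list read here covers the class and is not limited to partners of Arnt. Of 10 measured genes of that class, 1 fell, where 4.64% of all genes did: Ahr, the dioxin receptor, at -0.27 (8.75, 8.82, 8.76 and 8.90 log2 units against 9.09, 9.16, 9.12 and 8.92; limma adjusted p = 0.0384). That call was lost with the replicate block (0.0726). It was also lost when mutant array 1 (0.083), 2 (0.0869) or 3 (0.0869) was left out, or control array 1 (0.0966), 2 (0.111) or 3 (0.111). Arntl, the clock gene also called Bmal1, differed by -0.44 with overlapping groups (limma adjusted p = 0.186). The list's median was 0.15. Without mutant arrays 3 and 4 the list again held 1 call, but that call was a rise.

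Genes known to lean on HIF-1 were lower where the Hif1a transcript was higher. All 9 of 9 measured fell, and their median was -1.28. Car9 (carbonic anhydrase 9), Slc16a3 (a lactate exporter) and Pfkl (a phosphofructokinase) led with -2.88, -2.32 and -1.89. Loss of Vhl is known to raise such genes, and whether the labels were exchanged was not tested. The mean of the list was 9.93, 10.05, 9.98 and 9.99 log2 units in the arrays labelled mutant and 11.21, 11.63, 11.64 and 11.38 in those labelled control. Of the 8 targets of both factors 7 fell, with Egln3, Adm (adrenomedullin, -1.78) and Ankrd37 (an ankyrin repeat gene, -1.42) foremost and a median of -0.79. Of 6 measured genes that lean on HIF-2, 1 fell (2 with a trended, robust variance) and 0 rose: Slc11a2, an iron importer, at -0.82 (limma adjusted p = 0.00302). Their median was -0.01, Epo itself differed by 0.16 and the cyclin gene Ccnd1 by -0.28, and neither passed (limma adjusted p = 0.45 and 0.0755). Epo values were low, from 5.79 to 6.45 log2 units. They lay below the lower quartile of the array on every array but mutant array 2, so a change in Epo could be missed. The assignment of targets to a factor is textbook knowledge and was made with earlier results of these arrays known.

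**Figure D4:**
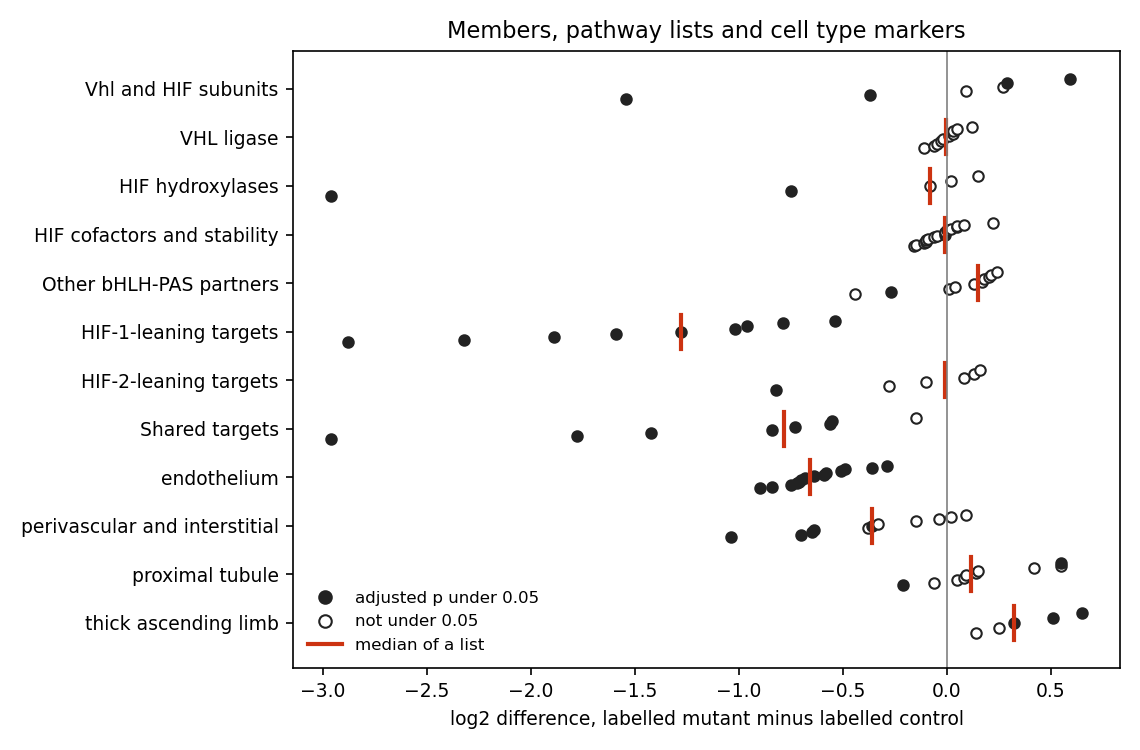
Log2 difference (arrays labelled mutant minus arrays labelled control) of each measured gene among the members, 7 pathway lists and 4 cell type marker lists; filled points have a limma adjusted p under 0.05 and red bars are list medians. HIF-1-leaning targets and endothelial markers lie entirely to the left of 0, and VHL ligase genes lie within 0.12 of 0.

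Among all genes tested, those most like each called member were found by the root mean square difference between profiles over the 8 arrays, each centred on its own mean. This measure holds the group difference as well as the spread within groups. Nearest to Hif3a were Adm2, Pdk1 and Adm, an adrenomedullin-related peptide gene, a kinase gene of pyruvate dehydrogenase and adrenomedullin, at 0.287, 0.308 and 0.312 log2 units. They differed by -1.46, -1.59 and -1.78 between the groups. Nearest to Epas1 were Naca, Dock6 and Bnip3l, a mitophagy receptor gene, at 0.0342, 0.0379 and 0.0437, with differences of -0.33, -0.41 and -0.34. Nearest to Hif1a were Fabp3, a fatty acid binding protein gene, Rcan1, a calcineurin regulator gene, and Abca13, at 0.0829, 0.0946 and 0.106. Of these Fabp3 (0.59) and Abca13 (0.65) passed the test and Rcan1 (0.47) did not (limma adjusted p = 0.0538), though it did with the replicate block (0.00469). Nearest to Vhl were Rhof, Fastkd1 and Slc12a1, the sodium-potassium-chloride cotransporter gene of the thick ascending limb, at 0.0414, 0.0446 and 0.0497. None of these 3 passed in the limma fit (adjusted p = 0.0634, 0.0637 and 0.0588), but with the replicate block Fastkd1 and Slc12a1 did (0.0355 and 0.0456) and Rhof did not (0.0677).

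Thick ascending limb markers were higher where Vhl was: 3 of 5 rose and 0 fell, with a median of 0.32. With a trended, robust variance 5 rose, and without mutant arrays 1 and 2, 2 rose. Over all genes 2.59% rose and 4.64% fell. The mean level of the thick ascending limb markers was 11.74 to 11.82 log2 units in the arrays labelled mutant and 11.30 to 11.52 in those labelled control. Of 10 measured proximal tubule markers 1 rose and 1 fell, with a median of 0.12. Leaving out mutant array 2 or 3, or control array 1, 2 or 3, gave 1 rise and 0 falls, and leaving out mutant array 1 gave 2 rises and 0 falls. Of 4 distal convoluted tubule markers 2 rose, with a median of 0.39, so a rise was not particular to the thick ascending limb. Of 11 collecting duct markers 2 rose (1 when mutant array 1, 2 or 4 or control array 2 was left out, and 0 when control array 3 was). Of 4 measured podocyte markers 1 fell, of 4 erythroid markers 1 fell (2 without control array 4), and limma called 0 of 8 leukocyte markers (2 at an unadjusted p under 0.05, 2 calls with the replicate block, and 1 call without mutant array 2 or control array 4). The part of these shifts in the members' values was not tested.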

How the data were processed

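The authors deposited a table of log2 values for 35556 probe sets on 8 arrays, running from 1.92 to 14.66. Per the submitters' processing notes limma was used, without a version; background correction, summarization and normalization are not given in the sources used here, so compression of low values cannot be judged. RNA was isolated with TRIzol and an RNeasy kit, per the labels' protocols. Of the probe sets, 21789 name 1 gene, 1621 several and 12146 are unlisted; symbols were updated through Entrez identifiers and accessions (21701 matched GRCm38.p6). The brightest probe set by mean stood for each of 19936 genes. No value was filtered or renormalized.

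Groups were compared with limma 3.58.1 in R 4.3.3 (lmFit, eBayes, no covariate), and single values by exact permutation. The labels number arrays 1 to 4 in both groups. Deviations from group means correlated at 0.138, 0.153, 0.295 and 0.175 between same-numbered arrays. Between arrays of unlike number the correlations ran from -0.193 to 0.111. On this basis arrays sharing a number were treated as pairs in the replicate block and in the same-numbered differences. This pairing rests on weak correlations in the same data and is not stated by the labels. The main fit did not use it. Named list genes are up to 3 called genes with the largest change per pathway list, else the largest; other names, such as Elob or Epo, were added for their role. For each called member the 3 most alike genes are named, passing over clone names. Tested on simulated data for this comparison of 19936 genes, the fit recovered 77% of genes changed by 0.5 and 99% of those changed by 1, with 10 false among 186 calls. The simulated noise was normal and independent between genes and arrays, without pairs. Far fewer genes were changed than the 1442 called here, so these rates need not hold for the data. The members, lists and alternatives were chosen with earlier results of these data known.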

Additional observations from a re-analysis of the deposited data

Results flagged for a closer look

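Single arrays lay far from the others of their group in 3 of 96 groups of 4 checked among the members, their ratios, the named list genes and the list means (3.12%); chance gives about 1 in 20. In the log2 ratio of Hif1a to Arnt, control array 4 stood at 0.55 and the other controls at 0.04 to 0.11. In that of Hif1a to Hif3a, control array 2 stood at 1.33 and the others at 1.65 to 1.71. The mean of the endothelial markers was 9.87 in mutant array 1 and 9.96 to 9.97 in the other arrays labelled mutant. Among the genes named for their likeness to a member, control array 4 read 8.20 in Rhof (others 7.92 to 7.94) and 9.01 in Fastkd1 (others 8.76 to 8.80). Both were chosen for a profile like that of Vhl, in which this array is the highest control, so they are no separate evidence that it stands apart.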

How the results depend on the processing

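The differences of Hif1a, Epas1, Hif3a, Arnt and Arnt2 kept their direction and their side of the 0.05 threshold, though not of 0.01, under all 18 alternatives of normalization, filter, variance model, weights, replicate block, probe sets and arrays left out. Their log2 differences ran from 0.54 to 0.70, -0.42 to -0.32, -1.71 to -1.33, 0.06 to 0.11 and 0.21 to 0.33. Part of this was fixed in advance. The filter, the trended variance, the replicate block and the probe set alternatives could change a member's p-value but not its difference. For Vhl, Hif1a, Epas1 and Hif3a, whose groups did not overlap, leaving out arrays could not turn the direction. Vhl stayed positive, but its call was lost under 10 of the 18. With the replicate block its difference was 0.29 (limma adjusted p = 0.0558), with all probe sets as rows 0.29 (0.0714), 0.35 (0.0661) when mutant arrays 1 and 2 were dropped and 0.23 (0.123) when 3 and 4 were. Leaving out single arrays gave 0.25 to 0.35. Among members the replicate block changed no other call. Each of the 15 ratios moved by less than the spread between arrays under its 14 alternatives; 4 pairs cannot go below an exact p of 0.125. Genes called over all genes numbered 1442, 602 at an adjusted p under 0.01, and 902 to 1368 when single arrays were left out (917 without mutant array 2, 903 without control array 2, 902 without control array 3). Calls over the pathway lists together (19 of 64 genes) ran from 16 to 20. When mutant arrays 1 and 2 were dropped, the calls among perivascular and interstitial, distal convoluted tubule, collecting duct, podocyte and leukocyte markers numbered 3, 1, 0, 0 and 3, against 5, 2, 2, 1 and 0. Of the genes most like a member, Naca and Abca13 lost their calls without mutant arrays 1 and 2 (limma adjusted p = 0.0815 and 0.0582), while Rhof, Fastkd1, Slc12a1 and Rcan1, not called in the main comparison, were each called after quantile normalization, with the upper 60% of probe sets, with array weights and without control array 4 (limma adjusted p from 0.00921 to 0.045). Fastkd1, Slc12a1 and Rcan1 were also called with the replicate block and with a trended, robust variance, and Rcan1 without mutant array 2 (0.0451). Leukocyte calls numbered 2 with the replicate block, and 1 each with quantile normalization, median centring, a trended, robust variance and array weights. The cause of these changes was not tested. Signal over background is not in the table, so no probe set was called absent.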
